A study of Saccharomyces cerevisiae with 29 samples.

Results

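The ATG genes of budding yeast encode the machinery of autophagy. The genes described here are the rows of the deposited expression table that are of type gene and whose symbol is ATG followed only by digits. That rule found 28 of 5798 coding open reading frames (ORFs), in a table of 20318 rows that also lists transcripts and noncoding RNAs. The choice used names and no measured value. All 28 passed the filter on low values, with means over the 17 RNA libraries from 59.4 (ATG10) to 2189 (ATG26) normalized reads.

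Autophagy wraps cytoplasm in a double membrane, the autophagosome, which fuses with the vacuole, the lytic compartment of yeast, where the contents are broken down. The Atg1 kinase complex starts the process, vesicles carrying Atg9 and the lipid transfer pair of Atg2 and Atg18 supply membrane, and a phosphatidylinositol kinase complex marks the site. A pair of ubiquitin-like systems then attaches Atg8 to lipid, and receptors tie chosen cargo to Atg8. In growing yeast the pathway is known to be held low by nutrient signalling, while a selective branch, the Cvt pathway, carries vacuolar aminopeptidase 1 to the vacuole all the time.

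Total RNA was measured in haploid MATa W303 strains that all carry the alleles ura3, can1-100, his3-11,15, ade2-1, leu2-3,112 and trp1-1 together with GAL and RAD5. The mutants were rad50Δ (rad50::KAN, with URA3::GPD-TK7; 2 libraries), mre11Δ (mre11::HIS; 2), mre11-H125N (mre11::mre11-H125N, an allele with 1 residue of the nuclease site replaced; 2), rrp6Δ (rrp6::TRP, with URA3::GPD-TK7; 2), xrn1Δ (xrn1::ADE2; 2) and ku70Δ (ku70::HIS; 1), all held in G1. Wild type (WT) was measured in S phase, after release from the G1 arrest into 0.033% methyl methanesulfonate (MMS, a DNA alkylating agent) for 60 min, in 2 libraries, and in G1 in 4 libraries. Cells of all groups grew in rich medium with 2% glucose and were arrested with α-factor, the mating pheromone, at 5 µg/ml and 25 °C over 170 min. Rad50 and Mre11 belong to the MRX complex that works on DNA ends, Ku70 binds DNA ends, Rrp6 is the nuclear exosome's own exonuclease, and Xrn1 is the main cytoplasmic exonuclease that degrades RNA from its front end. The marker and cassette genes differ between strains, so a deletion and its marker cannot be told apart, and rad50Δ and rrp6Δ differ from WT by a thymidine kinase cassette as well. The MMS cells were arrested like the others and then released, so release and cell-cycle phase cannot be told apart from the drug.

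Values are reads per ORF divided by 1 size factor per library, called normalized reads below. They are compared between libraries for the same gene as relative levels, not as amounts of RNA per cell. Differences are given as log2 of the value plus 1, with a standard error (SE) from limma fitted to all 17 libraries and 16559 rows. A gene is said to have risen or fallen only where its adjusted p (Benjamini-Hochberg over all those rows) was under 0.05. Some counts at an unadjusted p under 0.05 are given as well. The share of all coding genes at that threshold was not counted, so those counts cannot be set against it. Every comparison with WT uses the same 4 WT G1 libraries, so the comparisons are not independent of each other. The labels do not say whether libraries of a group came from separate cultures, and p-values then measure only the spread between these libraries.

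The coding ORF rows held 7419447 to 32613640 reads per library. Each deleted gene had between 0 and 15.8 normalized reads in its own mutant. MATa markers summed to between 31491 and 99691 normalized reads in the G1 libraries, and to 2347 and 2801 in the MMS libraries, taken in S phase. Markers of the other mating type, MATα (4 genes), summed to 3706 and 4880 in rad50Δ, 1767 and 3351 in mre11Δ, 1728 and 1717 in xrn1Δ and 1487 in ku70Δ. These MATα sums were 816 to 884 in mre11-H125N and rrp6Δ, 291 to 420 in WT G1, and 263 and 234 in WT MMS. The reason was not tested. The library numbered 1 in rad50Δ, mre11Δ and WT G1 stood apart. Its G1/S genes (12 genes, mean log2 relative to WT G1) were at 1.73 in rad50Δ, 3.28 in mre11Δ and 2.13 in WT G1, against 0.25, 0.66 and −0.92 to −0.59 in the other libraries of these groups. Its histone genes were at 0.77, 2.62 and 0.31 in that order, against 0.41, 0.42 and −0.19 to −0.01. In mre11Δ library 1, labelled G1, histone genes were thus as high as in WT MMS in S phase (2.34 and 2.66). Its pheromone genes were at −1.03, −2.36 and −1.32 in the same order of groups, against 0.26, 0.29 and 0.18 to 0.68.

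**Figure D1:**
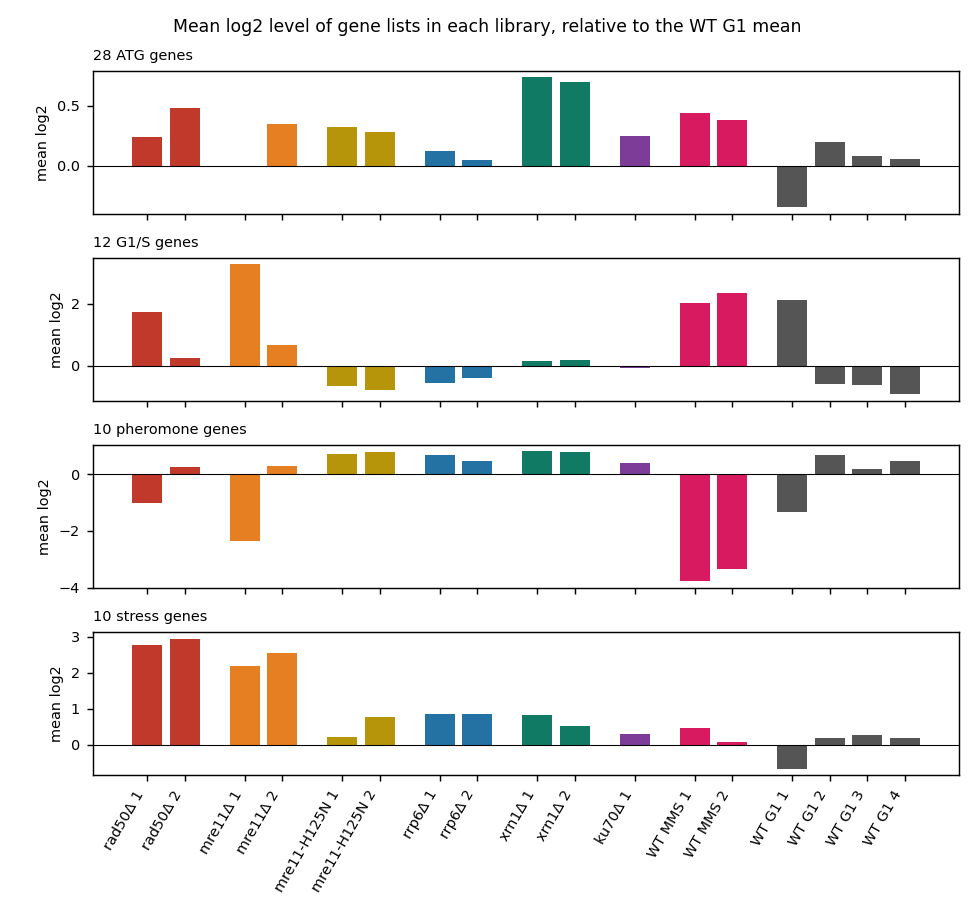
Mean log2 level of the 28 ATG genes, 12 G1/S genes, 10 pheromone genes and 10 stress genes in each of the 17 libraries (bars), relative to the mean of the WT G1 libraries. The library numbered 1 of rad50Δ, mre11Δ and WT G1 is higher in G1/S genes and lower in ATG genes than the others of its group, and the stress genes are highest in rad50Δ and mre11Δ.

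The ATG genes moved with that split. Their mean log2 level was 0.24 and 0.48 in the rad50Δ libraries, −0.00 and 0.35 in the mre11Δ libraries, and −0.34, 0.20, 0.09 and 0.05 in WT G1, the library numbered 1 being lowest in each. That library held the lowest value of its group for 21 of 28 ATG genes in WT G1 (30.6% of coding genes), and was below its partner for 25 of 28 in rad50Δ (50.6% of coding genes) and for 25 of 28 in mre11Δ (51.6%). Its part in the results below was not tested beyond leaving it out. In bulk RNA, fewer cells in a state and less RNA per cell cannot be told apart.

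In WT G1 the ATG genes were low among coding genes. Per kb of ORF their median level was 326 normalized reads, against 657 for all coding genes, and 4 of 28 lay above the coding median. ATG27 (YJL178C, chromosome 10, 89282 to 90097, build R64), which encodes a membrane protein that helps form Atg9 vesicles, was highest at 2009 ± 132 normalized reads per kb (SD, n = 4). ATG19, the receptor of the Cvt pathway, followed at 933 ± 237, then ATG5 at 823 ± 169 and ATG8 at 749 ± 266 (SD, n = 4 each). The lowest were ATG14 at 64.2 ± 20.9, ATG10 at 118 ± 11.7 and ATG16 at 134 ± 28.4 per kb (SD, n = 4 each). ATG14 encodes a subunit of the phosphatidylinositol kinase complex, and ATG10 and ATG16 act in the Atg12 conjugation system. Down the order of 28, only ATG27 and ATG19, and ATG10 and ATG14, were neighbours whose WT G1 libraries did not overlap. At the 25 other steps the ranges of the neighbours overlapped. All genes were measured in the same 4 libraries, and differences within each library were not tested, so overlap does not show that neighbours are equal.

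**Figure D2:**
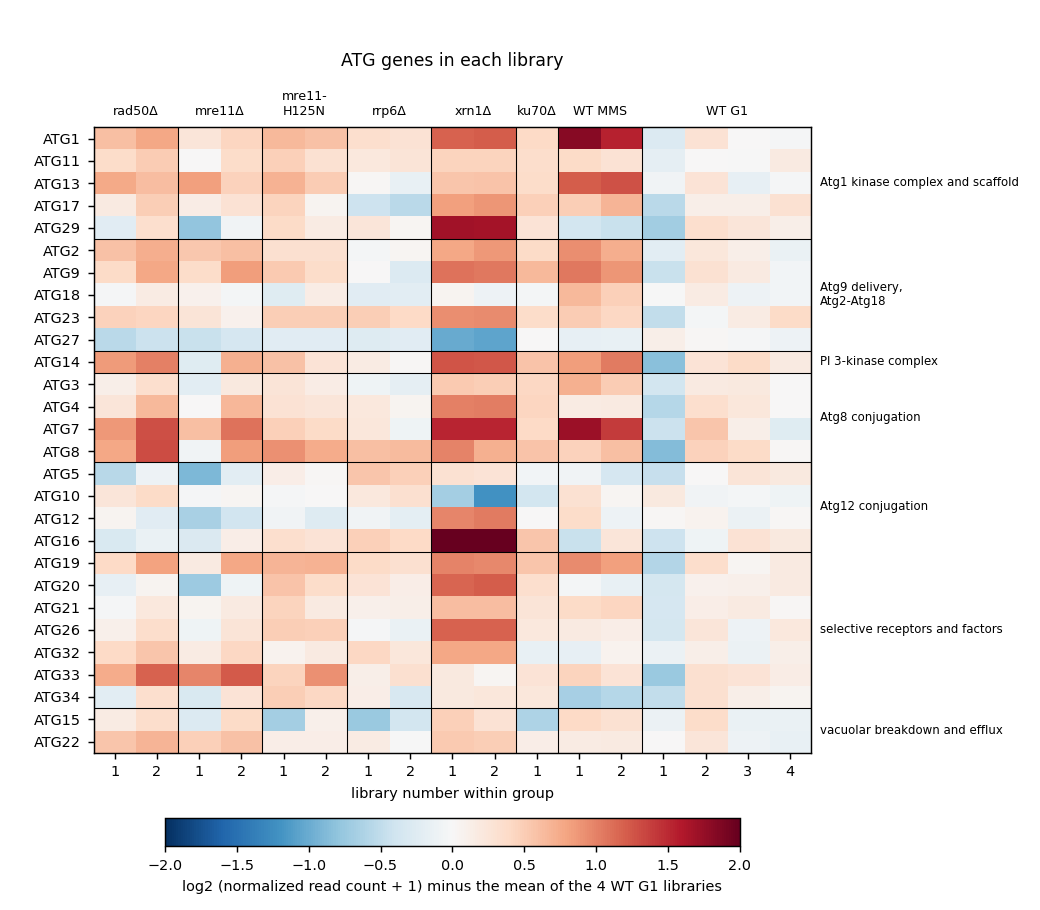
Colour gives log2 of the normalized reads plus 1 in each library minus the mean of the 4 WT G1 libraries, for 28 ATG genes grouped by role (rows) and 17 libraries (columns). The scale ends at 2.0, which the ATG16 values of xrn1Δ pass. Both xrn1Δ columns are red for most genes and blue for ATG27 and ATG10, both WT MMS columns are darkest for ATG1, ATG7 and ATG13, and the column of WT G1 library 1 is mostly blue.

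In xrn1Δ, 21 of 28 ATG genes rose and 2 fell, with a median log2 difference of 0.84. Among the 5580 coding genes tested, 35.1% rose and 32.8% fell, and the median was 0.06. By role, 5 of 5 genes of the Atg1 complex rose, 4 of 4 of Atg8 conjugation and the single gene of the kinase complex. In Atg9 delivery 3 of 5 rose and 1 fell, and in Atg12 conjugation 2 of 4 rose and 1 fell. Of the receptors and selective factors 5 of 7 rose, and of the vacuolar genes 1 of 2. Differences between the roles were not tested, and shares of coding genes by level follow below.

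The size of the change moved with expression level in this mutant, and the ATG genes are low. Coding genes were divided into 4 equal bins by their mean level per kb over all 17 libraries. In xrn1Δ 60.5% of the lowest bin rose (median log2 0.72), 49.1% of the next (0.37), 25.3% of the one above (−0.14) and 5.66% of the highest (−0.96). The lowest bin held 12 ATG genes, of which 10 rose (median 0.84). The next held 12, of which 9 rose (median 0.81). The upper bins held 3 and 1, and the 1 in the highest was ATG27, which fell. The summed coding reads after normalization were 10651941 and 10839549 in xrn1Δ, against 18403289 to 21587864 in WT G1. The part of level in the ATG count was not tested.

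ATG16 (YMR159C, chromosome 13, 574476 to 574928) encodes the partner that binds Atg5 joined to Atg12. It had 272 and 279.8 normalized reads in xrn1Δ, against 44.6, 56.3, 73.2 and 68.5 in WT G1. Every other library of the series lay at or below 87.7, so the xrn1Δ libraries stood alone. The ratio of means was 4.55, and the log2 difference 2.19 (SE 0.24, adjusted p = 3.8e-06 in limma). A dubious ORF on the other strand shares 316 bases with it and had at most 6.51 normalized reads in any library.

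ATG29 (YPL166W, chromosome 16, 237338 to 237979), a member of the Atg17 scaffold of the Atg1 complex, had 759 and 748 normalized reads in xrn1Δ, against 145, 298, 278 and 256 in WT G1. Both xrn1Δ libraries lay above every other library of the series. The log2 difference was 1.67 (SE 0.27, adjusted p = 1.4e-04 in limma), a ratio of 3.08. ATG7 (YHR171W, chromosome 8, 445713 to 447605) encodes the activating enzyme of both ubiquitin-like systems. It had 854 and 856 in xrn1Δ, against 220.1, 437, 319.6 and 250.4 in WT G1, with no overlap (log2 1.53, SE 0.24, adjusted p = 9.7e-05 in limma). ATG14 (YBR128C, chromosome 2, 493081 to 494115) had 152 and 151 in xrn1Δ, against 34.8, 76.7, 83.0 and 71.3 in WT G1 (log2 1.25, SE 0.32, adjusted p = 0.0041 in limma).

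The core genes rose in xrn1Δ as well. ATG1 (YGL180W, chromosome 7, 160065 to 162758), the kinase that starts autophagy, had 1760.3 and 1787 normalized reads in xrn1Δ, against 641, 949.8, 777 and 759 in WT G1 (log2 1.195, SE 0.14, adjusted p = 7.1e-06 in limma). ATG9 (YDL149W, chromosome 4, 184925 to 187918), the only membrane-spanning lipid scramblase of the core machinery, had 1074 and 1058 in xrn1Δ, against 372, 629, 574 and 489.8 in WT G1 (log2 1.07, SE 0.20, adjusted p = 4.0e-04 in limma). Neither gene overlapped between the groups. ATG8 (YBL078C, chromosome 2, 80378 to 80731), the ubiquitin-like protein on the autophagosome, had 499 and 411 in xrn1Δ, against 137, 344, 325 and 255 in WT G1 (log2 0.85, SE 0.33, adjusted p = 0.039 in limma). ATG8 missed the threshold without xrn1Δ library 1 or 2, without WT G1 library 1 or 4, with TMM factors and when only these groups were fitted, with an adjusted p of up to 0.20 in limma.

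The other genes that rose in xrn1Δ ranged from 0.44 to 1.19 in log2. They were ATG20 (1.19), a sorting nexin, ATG26 (1.18), a sterol glucosyltransferase, ATG4 (1.02), the Atg8 protease, ATG12 (1.01), ATG19 (0.97), ATG23 (0.94), ATG17 (0.85), ATG2 (0.82), ATG32 (0.78), the mitophagy receptor, ATG21 (0.62), ATG13 (0.56), ATG22 (0.51), ATG3 (0.51) and ATG11 (0.44). ATG27 and ATG10 fell. ATG27 had 809.8 and 790.1 normalized reads in xrn1Δ, against 1777, 1656, 1609 and 1518 in WT G1 (log2 −1.03, SE 0.090, adjusted p = 5.1e-07 in limma). ATG10, which encodes the conjugating enzyme that links Atg12 to Atg5, had 36.8 and 24.9 in xrn1Δ, against 68.3, 56.3, 57.7 and 55.7 in WT G1 (log2 −0.95, SE 0.19, adjusted p = 8.2e-04 in limma). Its own substrates, ATG12 and ATG5, had log2 differences of 1.01 and 0.29. The genes without a call were ATG5, ATG15, ATG18, ATG33 and ATG34, between −0.02 and 0.38.

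**Figure D3:**
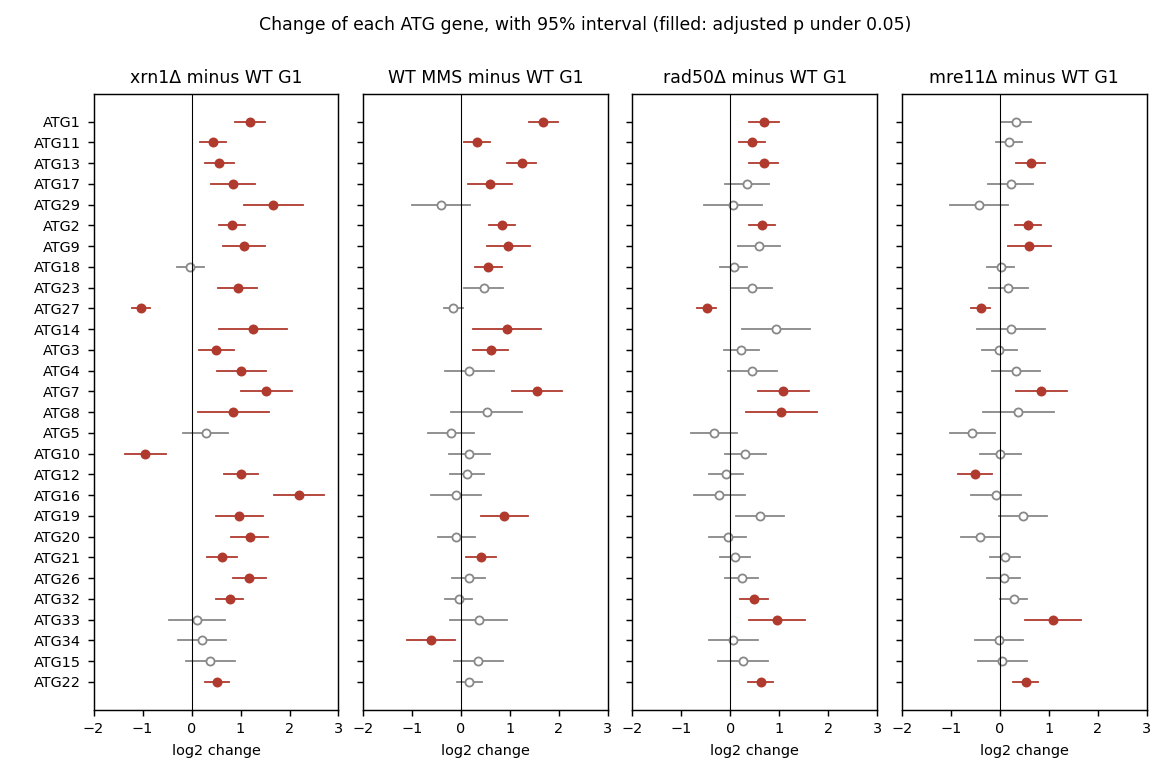
Log2 difference of each ATG gene (rows, grouped by role) with its 95% interval from limma, in xrn1Δ, WT MMS, rad50Δ and mre11Δ, each minus WT G1. Filled points have an adjusted p under 0.05, which holds for 23, 13, 10 and 8 genes in that order of panels, and all 4 panels share the WT G1 libraries.

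The other RNA decay mutant differed. In rrp6Δ 0 of 28 ATG genes passed the threshold in limma, against 8.64% of coding genes that rose and 9.19% that fell. At an unadjusted p under 0.05 there were 7, edgeR called 0 and DESeq2 called 3, beside 18.8% of coding genes called by edgeR and 22.6% by DESeq2 in either direction. Differences ran from −0.55 (ATG15, a vacuolar lipase) to 0.62 (ATG8), with a median of 0.10, and the 95% intervals reached from −1.05 to 1.34. ATG1 had 974 and 949.7 normalized reads in rrp6Δ, against 641, 949.8, 777 and 759 in WT G1 (log2 0.31, SE 0.14, adjusted p = 0.12 in limma). ATG9 had 512 and 418 in rrp6Δ, against 372, 629, 574 and 489.8 in WT G1 (log2 −0.13, SE 0.20, adjusted p = 0.67 in limma). ATG8 had 380.3 and 388 in rrp6Δ, against 137, 344, 325 and 255 in WT G1, just above all of them (log2 0.62, SE 0.33, adjusted p = 0.19 in limma). Scaling by TMM moved the median of all coding genes in rrp6Δ to −0.14 from −0.00, and with it 0 ATG genes rose and 3 fell. Of the 5580 coding genes 281 rose and 970 fell under that scaling. There was 1 call without WT G1 library 1 or without library 2, and 2 without library 4.

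Set directly against rrp6Δ, xrn1Δ had 18 ATG genes higher and 2 lower past the threshold, against 27.8% and 28.5% of coding genes. ATG16 had 272 and 279.8 normalized reads in xrn1Δ, against 83.0 and 78.6 in rrp6Δ (log2 1.76, SE 0.28, adjusted p = 1.4e-04 in limma). ATG29 had 759 and 748 in xrn1Δ, against 280.0 and 243 in rrp6Δ (log2 1.53, SE 0.32, adjusted p = 0.0012 in limma). ATG7 had 854 and 856 in xrn1Δ, against 345 and 279.7 in rrp6Δ (log2 1.46, SE 0.28, adjusted p = 6.1e-04 in limma). For these genes both xrn1Δ libraries lay above both rrp6Δ libraries.

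ATG17, the scaffold that gathers the Atg1 complex in starved cells, had 402 and 418 normalized reads in xrn1Δ, against 169 and 156 in rrp6Δ (log2 1.33, SE 0.24, adjusted p = 4.3e-04 in limma). The other genes that were higher were ATG26 (1.26), ATG9 (1.203), ATG14 (1.15), ATG12 (1.14), ATG20 (0.98), ATG15 (0.93), ATG1 (0.88), ATG4 (0.88), ATG2 (0.82), ATG3 (0.65), ATG13 (0.62), ATG21 (0.51), ATG32 (0.46) and ATG22 (0.44). ATG10 (−1.22) and ATG27 (−0.79) were lower in xrn1Δ. Of the core genes, ATG1 had 1760.3 and 1787 normalized reads in xrn1Δ, against 974 and 949.7 in rrp6Δ (SE 0.16, adjusted p = 4.6e-04 in limma). ATG9 had 1074 and 1058 in xrn1Δ, against 512 and 418 in rrp6Δ (SE 0.23, adjusted p = 6.7e-04 in limma). ATG8 had 499 and 411 in xrn1Δ, against 380.3 and 388 in rrp6Δ, and did not pass (log2 0.24, SE 0.38, adjusted p = 0.62 in limma). Without xrn1Δ library 1 the count was 13 genes.

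WT cells in S phase with MMS had 12 ATG genes that rose and 1 that fell against WT G1, with a median log2 difference of 0.36. Of coding genes 23.5% rose and 23.5% fell, and the median was 0.00. In the lowest bin by level 27.0% of coding genes rose, and 7 of its 12 ATG genes did. In the next bin 25.9% rose, and 4 of its 12 ATG genes did. By role, 4 of 5 genes of the Atg1 complex rose, 3 of 5 of Atg9 delivery, the single gene of the kinase complex, 2 of 4 of Atg8 conjugation, 0 of 4 of Atg12 conjugation, 2 of 7 receptors and selective factors and 0 of 2 vacuolar genes. Differences between the roles were not tested. These libraries also differed in state. Mean log2 relative to WT G1 was 2.04 and 2.36 for G1/S genes, 2.34 and 2.66 for histone genes, and −3.78 and −3.34 for pheromone genes, whose part was not tested.

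ATG1 had 2751 and 2246 normalized reads in WT MMS, against 641, 949.8, 777 and 759 in WT G1, and no other library of the series exceeded 1787. The ratio was 3.20 (log2 1.68, SE 0.14, adjusted p = 1.5e-06 in limma). ATG7 had 968 and 782 in WT MMS, against 220.1, 437, 319.6 and 250.4 in WT G1 (log2 1.55, SE 0.24, adjusted p = 2.4e-04 in limma). ATG13 (YPR185W, chromosome 16, 907218 to 909434), the Atg1 partner that nutrient signalling acts on, had 1294 and 1350.3 in WT MMS, against 534, 674, 498 and 549 in WT G1 (log2 1.24, SE 0.14, adjusted p = 1.8e-05 in limma). None of these overlapped between the groups.

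ATG9 had 1055 and 934 normalized reads in WT MMS, against 372, 629, 574 and 489.8 in WT G1 (log2 0.97, SE 0.20, adjusted p = 0.0018 in limma). The other genes that rose were ATG14 (0.93), ATG19 (0.89), ATG2 (0.83), ATG3 (0.61), the conjugating enzyme for Atg8, ATG17 (0.59), ATG18 (0.56), ATG21 (0.41) and ATG11 (0.33), the scaffold of selective autophagy. ATG34 fell, with 249.7 and 266 in WT MMS, against 281, 493, 427 and 410.3 in WT G1 (log2 −0.61, adjusted p = 0.048 in limma). ATG34 and its neighbour ATG19 are related cargo receptors, and how reads that match several places were counted is not stated. ATG8 did not pass, with 345 and 378 in WT MMS, against 137, 344, 325 and 255 in WT G1 (log2 0.53, SE 0.33, adjusted p = 0.22 in limma). Leaving out WT MMS library 1 left 5 called genes and leaving out library 2 left 8, while ATG1, ATG7, ATG13, ATG9 and ATG2 passed under every alternative run.

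**Figure D4:**
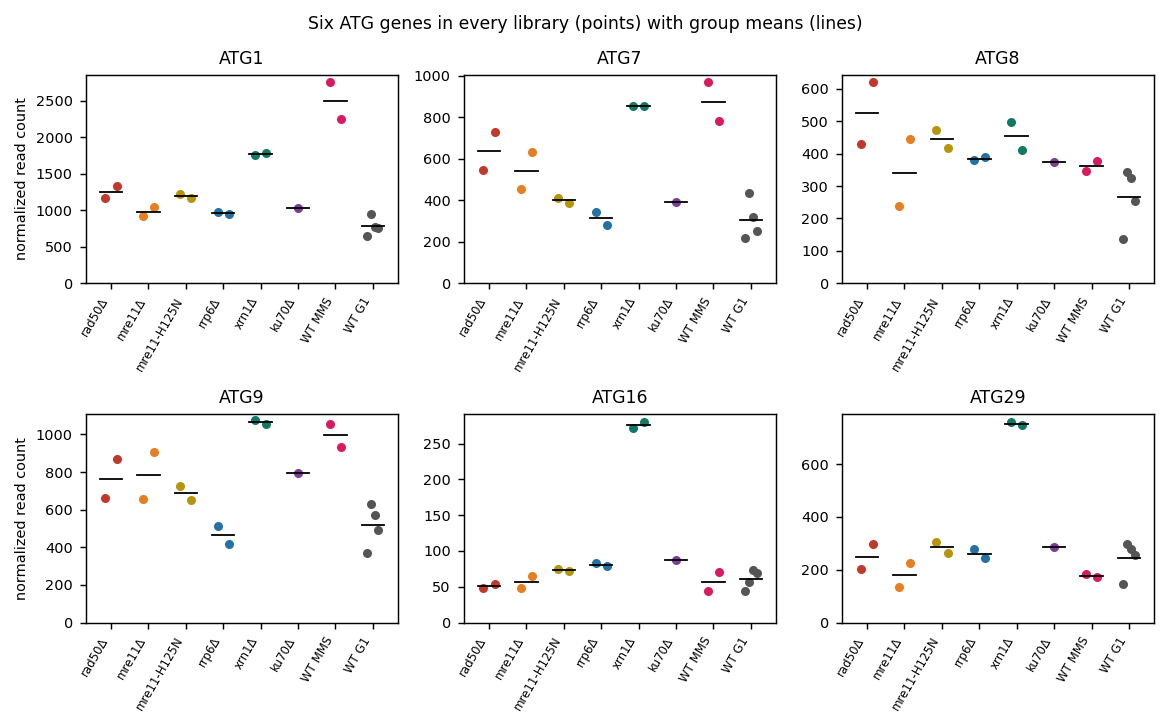
Normalized reads of ATG1, ATG7, ATG8, ATG9, ATG16 and ATG29 in every library (points), with group means (lines), for the mutants, WT MMS and WT G1. ATG1 is highest in WT MMS, ATG16 and ATG29 are high in xrn1Δ alone, and ATG8 in WT G1 spreads from 137 to 344.

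In rad50Δ 9 ATG genes rose and 1 fell, with a median log2 difference of 0.39. Of coding genes 12.8% rose and 12.1% fell, with a median of −0.01, and in the lowest bin by level 20.9% rose. The genes that rose lay in the Atg1 complex (3 of 5), Atg8 conjugation (2 of 4), Atg9 delivery (1 of 5), the receptors and selective factors (2 of 7) and the vacuolar genes (1 of 2). Stress genes were far higher in rad50Δ, at a mean log2 of 2.76 and 2.95, against −0.67 to 0.28 in WT G1, and their part was not tested.

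ATG7 had 544 and 729 normalized reads in rad50Δ, against 220.1, 437, 319.6 and 250.4 in WT G1 (log2 1.08, SE 0.24, adjusted p = 0.0081 in limma). ATG8 had 429 and 620.0 in rad50Δ, against 137, 344, 325 and 255 in WT G1 (log2 1.04, SE 0.33, adjusted p = 0.042 in limma). ATG33 (YLR356W, chromosome 12, 840321 to 840914), a protein of the mitochondrial outer membrane needed for mitophagy, had 289 and 391 in rad50Δ, against 103, 217, 208 and 192 in WT G1 (log2 0.96, SE 0.27, adjusted p = 0.023 in limma). For each of them both rad50Δ libraries lay above every WT G1 library.

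ATG1 had 1170.3 and 1329 normalized reads in rad50Δ, against 641, 949.8, 777 and 759 in WT G1 (log2 0.69, SE 0.14, adjusted p = 0.0054 in limma). Smaller rises were found for ATG13 (0.68), ATG2 (0.65), ATG22 (0.62), an exporter of amino acids from the vacuole, ATG32 (0.48) and ATG11 (0.43), and ATG27 fell (−0.48). ATG9 just missed the threshold, with 662 and 869 in rad50Δ, against 372, 629, 574 and 489.8 in WT G1 (log2 0.58, SE 0.20, adjusted p = 0.054 in limma). The genes without a call lay between −0.33 (ATG5) and 0.93 (ATG14). None of the 10 calls passed under every alternative run. Without rad50Δ library 2 there were 2 calls, without rad50Δ library 1 there were 5, and without the library numbered 1 of rad50Δ, mre11Δ and WT G1 12 genes rose and 1 fell.

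In mre11Δ 6 ATG genes rose and 2 fell, with a median of 0.18. Of coding genes 12.1% rose and 11.9% fell, with a median of −0.02. In the lowest bin by level 21.5% of coding genes rose (median 0.24), and 4 of its 12 ATG genes did (median 0.23). In the next bin 12.1% rose (median 0.01), and 2 of its 12 ATG genes did (median 0.07). The part of level was not tested. ATG33 had 340.2 and 404 normalized reads in mre11Δ, against 103, 217, 208 and 192 in WT G1 (log2 1.097, SE 0.27, adjusted p = 0.012 in limma). ATG7 had 452 and 631 in mre11Δ, against 220.1, 437, 319.6 and 250.4 in WT G1 (log2 0.85, SE 0.24, adjusted p = 0.026 in limma). ATG13 had 992 and 768 in mre11Δ, against 534, 674, 498 and 549 in WT G1 (log2 0.64, SE 0.14, adjusted p = 0.0070 in limma). None of the 3 overlapped between the groups, though for ATG7 the lower mre11Δ library, at 452, lay close to the highest WT G1 library, at 437.

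ATG9 had 656 and 909 normalized reads in mre11Δ, against 372, 629, 574 and 489.8 in WT G1 (log2 0.61, SE 0.20, adjusted p = 0.048 in limma). ATG2 (0.57) and ATG22 (0.53) rose, and ATG12 (−0.51) and ATG27 (−0.39) fell. ATG12, which rose in xrn1Δ, fell in mre11Δ by a call that was lost under 9 of 18 alternatives, among them edgeR and the fits without mre11Δ library 1 or 2 or without WT G1 library 1, 2 or 4. The ATG9 call was lost under 8, among them those without mre11Δ library 1 or 2 or WT G1 library 1 or 4, and the ATG7 call under 4, among them those without mre11Δ library 2 or WT G1 library 4. ATG1, with 919 and 1039 in mre11Δ, against 641, 949.8, 777 and 759 in WT G1, overlapped (log2 0.34, SE 0.14, adjusted p = 0.10 in limma). ATG8 had 238 and 445 in mre11Δ, against 137, 344, 325 and 255 in WT G1, with overlap, and did not pass (log2 0.38, SE 0.33, adjusted p = 0.45 in limma). The genes without a call lay between −0.56 (ATG5) and 0.47 (ATG19). None of the 8 calls passed under every alternative. There were 4 without mre11Δ library 1, 5 without mre11Δ library 2, 5 without WT G1 library 4, and 6 that rose and 0 that fell without the library numbered 1 of the 3 groups.

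rad50Δ set directly against mre11Δ gave 0 calls among the 28 genes in limma, in edgeR and in DESeq2, with 2 genes at an unadjusted p under 0.05. Of coding genes 0.0717% were higher and 0.0896% lower in limma, and in either direction edgeR called 0.143% and DESeq2 0.985%. Differences ran from −0.14 (ATG16) to 0.69 (ATG14), and the 95% intervals reached from −0.80 to 1.497, which leaves room for differences of that size. ATG1 was 0.35 (SE 0.16), ATG8 0.66 (SE 0.38) and ATG9 −0.03 (SE 0.23) on that log2 scale.

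The nuclease allele mre11-H125N had 1 ATG gene that rose and 0 that fell, against 1.04% and 0.412% of coding genes. This was ATG1, with 1218 and 1165 normalized reads in mre11-H125N, against 641, 949.8, 777 and 759 in WT G1 (log2 0.62, SE 0.14, adjusted p = 0.048 in limma). The call was lost without either mre11-H125N library and without WT G1 library 1 or 4, and without WT G1 library 2 there were 2 calls. edgeR called 2 ATG genes and DESeq2 3, beside 1.76% and 12.3% of coding genes in either direction. ATG8 had 474 and 417 in mre11-H125N, all above the 137, 344, 325 and 255 of WT G1 (log2 0.83, SE 0.33, adjusted p = 0.17 in limma). ATG9 had 725 and 652 in mre11-H125N, against 372, 629, 574 and 489.8 in WT G1 (log2 0.44, SE 0.20, adjusted p = 0.22 in limma). The median difference was 0.31, and 13 genes had an unadjusted p under 0.05. In mre11Δ against WT G1 the median was 0.18, and 12 genes had an unadjusted p under 0.05. Shares of coding genes at that threshold were not counted, so these counts do not show that the mutants are alike.

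mre11Δ set directly against mre11-H125N had 0 genes higher and 1 lower, against 8.62% and 7.76% of coding genes. ATG20, which acts in selective autophagy with the nexin Snx4, had 673 and 1049.6 normalized reads in mre11Δ, against 1646 and 1423 in mre11-H125N (log2 −0.86, SE 0.20, adjusted p = 0.016 in limma). The other genes lay between −0.70 (ATG29) and 0.42 (ATG7 and ATG33). ATG7, ATG33 and ATG13, which passed in mre11Δ against WT G1, had differences of 0.42 (SE 0.28), 0.42 and 0.04 here, so none of them was shown to differ between the deletion and the nuclease allele. The ATG20 call was lost without mre11Δ library 1 or mre11-H125N library 1, and without mre11Δ library 2 there were 2 calls. ATG1 was −0.29 (SE 0.16), ATG8 −0.45 (SE 0.38) and ATG9 0.17 (SE 0.23).

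The single ku70Δ library gave 0 calls in limma, which took its spread from the other groups, with 4 genes at an unadjusted p under 0.05, and 0.430% of coding genes rose and 0.358% fell. No count test was run on it. ATG1 had 1024, ATG8 374 and ATG9 795 normalized reads in ku70Δ, each above all 4 WT G1 libraries. Their log2 differences were 0.40 (SE 0.18), 0.58 (SE 0.43) and 0.65 (SE 0.26), with adjusted p = 0.34, 0.57 and 0.29 in limma. The share of coding genes for which this single library lay above all 4 WT G1 libraries was not counted.

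Across these comparisons with WT G1, which share the WT G1 libraries, some genes were called often and some never. ATG1, ATG2, ATG7 and ATG13 rose in 4 of them. ATG27 fell in 3. ATG5, the acceptor of Atg12, and ATG15, the lipase that opens autophagic bodies in the vacuole, were called in none. The shares of coding genes called in 4, in 3 or in none of these comparisons were not counted. ATG5 had 488 and 665 normalized reads in rad50Δ, 382 and 621 in mre11Δ, 1053 and 996 in rrp6Δ, 882 and 865 in xrn1Δ, and 519.7, 723, 853 and 819 in WT G1. It was the ATG gene with the lowest difference in rad50Δ among those not called (−0.33) and had 0.52 in rrp6Δ.

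Noncoding transcripts on the other strand were described where the table lists them. CUTs are unstable RNAs cleared by the nuclear exosome, and XUTs are RNAs cleared by Xrn1. There were 8 such rows over 6 ATG genes, and 5 passed the filter. A pair of them, CUT027 and XUT0062, overlap each other over ATG14 with nearly equal values, so the 5 rows stand for 4 distinct transcripts. In rrp6Δ 4 of the 5 rows (3 of the 4 transcripts) rose and 0 fell, against 71.5% and 0.844% of the 1778 antisense CUT, XUT and SUT rows tested.

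Over ATG14, CUT027 had 148 and 158 normalized reads in rrp6Δ, against 19.5, 18.8, 15.5 and 23.8 in WT G1 (log2 2.93, SE 0.40, adjusted p = 1.2e-04 in limma), and XUT0062, which overlaps it, had a difference of 2.91. ATG14 itself had 70.9 and 64.4 in rrp6Δ, below the antisense values, against 34.8, 76.7, 83.0 and 71.3 in WT G1. Over ATG15, CUT467 had 50.1 and 78.05 in rrp6Δ, against 22.3, 3.41, 10.6 and 11.9 in WT G1 (log2 2.51, SE 0.58, adjusted p = 0.0053 in limma).

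ATG15 had the lowest difference of the 28 genes in rrp6Δ, with 344 and 448 normalized reads in rrp6Δ, against 532, 742, 525 and 526 in WT G1, all below WT G1 (log2 −0.55, SE 0.23, adjusted p = 0.099 in limma). Over ATG18, CUT578 had 308 and 362 in rrp6Δ, against 25.1, 69.9, 60.2 and 119.7 in WT G1 (log2 2.46, SE 0.45, adjusted p = 0.0012 in limma). ATG18 had 470.1 and 478 in rrp6Δ, also below the 552, 617, 514 and 535 of WT G1 (log2 −0.22), and did not pass. In xrn1Δ 0 of the 5 rose and 2 fell, against 43.1% and 13.7% of antisense rows, namely CUT467 over ATG15 (−1.88) and CUT477 over ATG9 (−1.20). Those shares cover CUT, XUT and SUT rows together. Both falls rest on low values. CUT467 had 2.92 and 1.35 normalized reads in xrn1Δ, against 22.3, 3.41, 10.6 and 11.9 in WT G1. CUT477 had 10.6 and 13.5 in xrn1Δ, against 52.9, 30.7, 18.7 and 21.9 in WT G1. The rows that the filter left out were all XUTs, with low values, and were not tested in this fit. XUT0474 over ATG32 had 16.4 and 18.5 normalized reads in xrn1Δ, against 1.71 to 6.51 in WT G1. XUT0475 over ATG32 had 5.83 and 5.39 in xrn1Δ, against 0 to 0.914 in WT G1. XUT0677 over ATG23 had 9.11 and 11.8 in xrn1Δ, against 1.71 to 6.51 in WT G1.

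**Figure D5:**
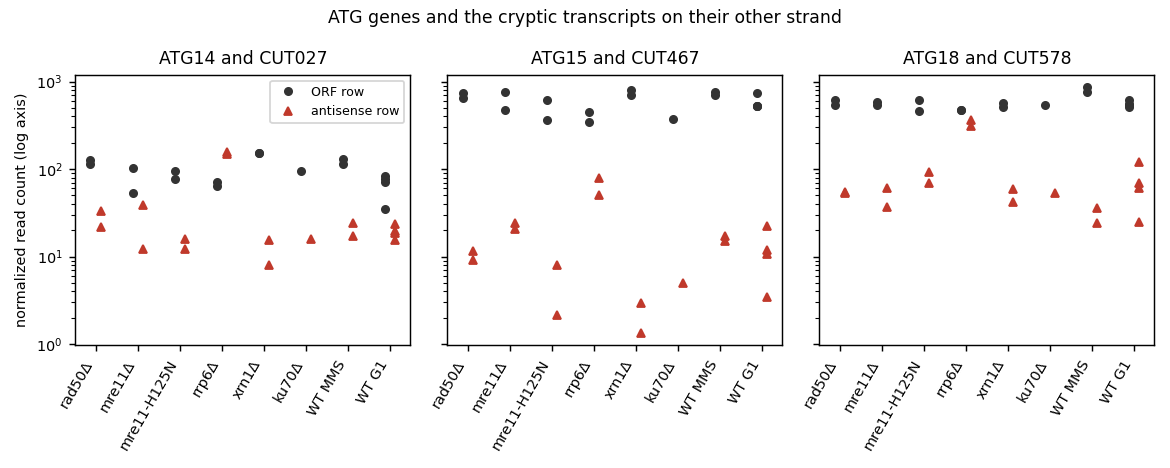
Normalized reads (log axis) of ATG14, ATG15 and ATG18 (circles) and of the cryptic transcript on the other strand of each (triangles) in every library. The antisense rows are highest in rrp6Δ, where CUT027 is above ATG14.

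The genes that work with the ATG proteins were counted in 5 lists. In xrn1Δ 6 of 8 partners rose and 1 fell, 13 of 19 nutrient signalling genes rose and 1 fell, and 7 of 17 genes of vacuolar fusion and proteolysis rose and 5 fell. Of 12 regulators 4 rose and 1 fell, and of 4 cargo genes 0 rose and 2 fell, against the 35.1% and 32.8% of coding genes above. The members that rose with the smallest p were VPS15 (1.03), a subunit of the phosphatidylinositol kinase complex, TRS85 (1.03), VPS33 (1.37) and CCZ1 (0.91) of vacuolar fusion, IML1 (1.24) and NPR2 (1.18), which restrain TOR complex 1, DHH1 (1.72), an RNA helicase, and GLN3 (1.28), a nitrogen regulator. Those that fell with the smallest p were YPT1 (−1.09), the proteases PEP4 (−1.27) and LAP3 (−1.22), YKT6 (−0.68), BCY1 (−0.42), URE2 (−0.39) and APE4 (−0.39). The vacuolar genes PRB1 (−1.36), PRC1 (−0.91) and YPT7 (−0.51) fell as well. PEP4 had 6633 and 6307 normalized reads in xrn1Δ, against 14382, 20038, 13657 and 15018 in WT G1.

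The Cvt cargo aminopeptidase 1 is encoded by LAP4. It had 105 and 121 normalized reads in rrp6Δ, against 464, 1148, 795 and 695 in WT G1 (log2 −2.69, SE 0.31, adjusted p = 4.4e-05 in limma). Both rrp6Δ libraries lay below every other library of the series, while its receptor ATG19 had 1474 and 1413 in rrp6Δ, against 757, 1449, 1165 and 1285 in WT G1 (log2 0.35, not called). PEP5, a subunit of the vacuolar tethering complex, fell as well in rrp6Δ, with 590.3 and 523, against 1264, 1183, 1084 and 1090.2 in WT G1 (log2 −1.05, SE 0.12, adjusted p = 2.2e-05 in limma). LAP3 (−0.49) and YPT7 (−0.34) fell, and LST8 (0.51) and NPR3 (0.40) rose. The counts in rrp6Δ were 0 rises and 2 falls of 4 cargo genes, 0 and 2 of 17 vacuolar genes, 2 and 0 of 19 signalling genes, and none of 8 partners and 12 regulators. Of coding genes 8.64% rose and 9.19% fell, so the vacuolar and signalling counts are near that share.

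In WT MMS LAP4 moved the other way, with 3912 and 2261 normalized reads, against 464, 1148, 795 and 695 in WT G1 (log2 2.01, SE 0.31, adjusted p = 3.0e-04 in limma), and ATG19 rose with it (0.89). NPR1, a kinase under TOR complex 1, rose by 1.38, SNX4 by 1.01, MSN2 by 1.13, UME6 by 0.96, PEP5 by 0.78, VPS33 by 0.71, TRS85 by 0.62 and RIM15 by 0.51. RPH1, a repressor of ATG7, fell (−0.77), as did TPK3 (−0.56) and SIT4 (−0.50). Of the lists 3 of 8 partners, 1 of 4 cargo genes, 7 of 17 vacuolar genes, 8 of 19 signalling genes and 6 of 12 regulators rose, and 0, 0, 0, 3 and 1 fell, beside 23.5% of coding genes that rose and 23.5% that fell.

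GAT1, a nitrogen activator, rose in both MRX deletions. It had 571 and 449.5 normalized reads in rad50Δ, 792 and 466 in mre11Δ, 127 and 235 in mre11-H125N, and 177, 276, 203 and 109 in WT G1. Its log2 difference was 1.48 in rad50Δ (SE 0.34, adjusted p = 0.0095 in limma) and 1.74 in mre11Δ (SE 0.34, adjusted p = 0.0041 in limma) against WT G1, and 1.81 in mre11Δ against mre11-H125N (SE 0.39, adjusted p = 0.0098 in limma).

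In rad50Δ against WT G1 the other members of the 5 lists with the smallest p in each direction were RIM15 (0.73), BCY1 (0.74), MSN4 (0.88), VPS15 (0.56), VPS34 (0.40), CPS1 (0.51) and VPS33 (0.52), which rose, and PHO23 (−0.77), a subunit of the Rpd3 deacetylase that represses ATG9, TPK3 (−0.45), VAM3 (−0.43), SIT4 (−0.31) and URE2 (−0.30), which fell. In mre11Δ against WT G1 they were RIM15 (0.81), NPR1 (0.47), MSN4 (0.93) and CPS1 (0.61), which rose, and TPK3 (−0.59), VAM3 (−0.34) and URE2 (−0.34), which fell. By list, 2 of 8 partners, 2 of 17 vacuolar genes, 3 of 19 signalling genes and 2 of 12 regulators rose in rad50Δ, and 0, 1, 2 and 2 fell. In mre11Δ these counts were 0, 1, 3 and 3 that rose, and 0, 1, 1 and 1 that fell. Of coding genes 12.8% rose and 12.1% fell in rad50Δ, and 12.1% rose and 11.9% fell in mre11Δ. No member of the 5 lists passed in limma in mre11-H125N or in ku70Δ against WT G1, or in rad50Δ against mre11Δ, with 24, 8 and 3 of 60 at an unadjusted p under 0.05 in that order. In mre11-H125N edgeR called 0 of them, and DESeq2 called 2 partners, 2 vacuolar genes, 4 signalling genes and 4 regulators, beside 12.3% of coding genes.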

How the data were processed

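Strand-specific, rRNA-depleted total RNA was sequenced from 17 libraries in 8 groups. The deposited values (unit signal) are read counts per feature divided by 1 size factor per library, made by the authors with STAR 2.5.3, SAMtools 0.1.19 and DESeq2 on build R64, per the submitters' processing notes. The counting program and its treatment of reads that match several places are not given in the sources used here. Deposited group means and per-base densities, listed as signal or other, were not used. Whole reads were recovered for 16 libraries (every value within 0.02 of a whole number after division by the value of 1 read). The ku70Δ library was left out of the count tests. The samples that are not RNA-seq were not analysed here.

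Rows with a mean of at least 10 were kept (16559, of which 5580 coding), and log2(value + 1) was fitted with limma 3.58.1 in R 4.3.3 (trend and robust, 8 groups, 9 residual degrees of freedom), with Benjamini-Hochberg adjustment. Fold changes of low genes are understated on this scale. The single ku70Δ library was assumed to vary like the others. edgeR 4.0.16 and DESeq2 1.42.0 on the recovered reads, other pseudocounts, filters and scalings, a replicate block, transcript rows and leaving out libraries were alternatives. The fit was tested on simulated data.

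Full values are given per comparison for the 4 called ATG genes with the largest change and for ATG1, ATG8 and ATG9, and for others singled out after their values were seen (ATG5, ATG10, ATG15, ATG17, ATG18, ATG19, ATG27, PEP4, GAT1). Other lists name up to 2 called members per direction with the smallest adjusted p. PRB1, PRC1 and YPT7 are named in xrn1Δ beyond that limit. Values outside these rules are also given for ATG14, ATG34, LAP4, PEP5, ATG41, ATG39, ATG44 and the antisense rows. The members and lists were chosen with earlier results of these data known. Positions are from the deposited table. Promoter and protein sequences were not used here.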

Additional observations from a re-analysis of the deposited data

Results flagged for a closer look

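ATG10 in WT G1 had 1 library above the others, with 68.3 normalized reads in library 1 against 55.7, 56.3 and 57.7 in the rest. In library 1 a single read was worth 1.39 normalized reads. ATG15 in WT G1 had 742 normalized reads in library 2, against 525, 526 and 532 in the rest. In both, the gap to the nearest library, as a share of the range over the 4 libraries, passed Dixon's 95% critical value for 4 samples. The 28 genes were each examined in WT G1 and 2 passed, and chance alone gives about 1 in 20.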

How the results depend on the processing

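Fitting only the groups compared, with few residual degrees of freedom, gave 3 called ATG genes in rad50Δ, 0 in mre11Δ, 0 in mre11-H125N and 8 in WT MMS, all against WT G1, and 0 in mre11Δ against mre11-H125N. In mre11-H125N there were 0 calls with no filter on low rows, 2 with a mean of at least 50, 0 with median-of-ratios factors, 2 with edgeR and 3 with DESeq2. In rrp6Δ there were 3 with TMM factors, 3 with DESeq2, 2 without the library numbered 1 of WT G1, rad50Δ and mre11Δ, and 2 on transcript rows. DESeq2 gave 2 in mre11Δ against mre11-H125N. Of the antisense rows in xrn1Δ 4 were called with no filter, 0 with a mean of at least 50 and 1 with only the groups compared, and in rrp6Δ 1 with a mean of at least 50. The labels give no pairing. With the replicate number as a block, 12 ATG genes were called in rad50Δ, 5 in mre11Δ, 4 in mre11-H125N and 5 in rrp6Δ, 2 in mre11Δ against mre11-H125N, and 1 antisense row in xrn1Δ. The block ended the mre11Δ calls of ATG7, ATG9 and ATG12. Differences of number 1 minus number 2 correlated at 0.66 to 0.72 among rad50Δ, mre11Δ and WT G1, and at −0.55 to 0.57 among the other pairs. Leaving out 1 library at a time gave 2 to 13 calls in rad50Δ, 4 to 9 in mre11Δ, 0 to 2 in mre11-H125N, 0 to 2 in rrp6Δ, 21 to 23 in xrn1Δ, 0 in ku70Δ and 5 to 13 in WT MMS. It gave 13 to 17 in xrn1Δ against rrp6Δ, 0 to 2 in mre11Δ against mre11-H125N and 0 in rad50Δ against mre11Δ, with 1 to 2 antisense rows in xrn1Δ and 3 to 4 in rrp6Δ. Where 1 library was left in a group, it was assumed to vary like the rest. Apart from the edgeR, DESeq2 and TMM background given above, shares of coding genes under these alternatives are not given here. These counts, and those above with libraries left out, therefore do not show a change particular to the ATG genes. Without mre11Δ library 2, ATG8 in mre11Δ turned to −0.070 (0.83 without library 1). Without rrp6Δ library 2, ATG9 in rrp6Δ turned to 0.014 (−0.28 without WT G1 library 1). Neither was called, and the cause was not tested. In xrn1Δ 21 of 23 calls passed under all 18 alternatives, and in WT MMS 5 of 13.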

Other observations

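RefSeq gives ATG names to 9 more genes that the deposited table lists under other names, and the rule above did not take them. Of these 9 genes 6 rose in rad50Δ, 3 in mre11Δ, 2 in rrp6Δ, 7 in xrn1Δ and 3 in WT MMS against WT G1, and 1 fell, in xrn1Δ. Of coding genes 12.8% rose in rad50Δ, 12.1% in mre11Δ, 8.64% in rrp6Δ, 35.1% in xrn1Δ (32.8% fell) and 23.5% in WT MMS. These comparisons share the WT G1 libraries.

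ATG41, listed as ICY2, encodes a protein that works with Atg9. It had 1294 and 1201 normalized reads in rad50Δ, 1154 and 935 in mre11Δ, 234 and 368 in mre11-H125N, 1255 and 973 in WT MMS, and 517, 472, 302 and 164 in WT G1. The rad50Δ, mre11Δ and WT MMS libraries all lay above WT G1, while mre11-H125N overlapped it. Its log2 difference was 1.91 in rad50Δ (adjusted p = 0.0047), 1.64 in mre11Δ (adjusted p = 0.0097) and 1.73 in WT MMS (adjusted p = 0.0026) against WT G1, and 1.82 in mre11Δ against mre11-H125N (adjusted p = 0.016), all in limma. ATG39, listed as YLR312C and a receptor for autophagy of the nuclear envelope, had 247 and 313 in rad50Δ, 182 and 290.0 in mre11Δ, 278 and 270.3 in xrn1Δ, and 90.6, 101, 106 and 69.5 in WT G1, with no overlap (log2 1.61, 1.34 and 1.59 in that order of mutants). ATG44, listed as YIL156W-B, moved in opposite directions in the RNA decay mutants, with 239 and 194 in xrn1Δ, 459 and 542 in rrp6Δ, and 265, 289.9, 349 and 357 in WT G1. Set directly against rrp6Δ, xrn1Δ was lower by a log2 difference of −1.21 (SE 0.18, adjusted p = 7.7e-05 in limma).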
